A study of Mus musculus with 8 samples.

Results

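The genes described here are 10 factors and effectors of the ATF4 stress response, followed in RNA sequencing of mouse intestinal crypts. They are the transcription factors Atf4, Atf5, Atf3, Ddit3, Cebpb and Cebpg, and the effectors Trib3, Chac1, Ddit4 and Nupr1. They were chosen by gene symbol from the 29037 genes of the deposited table, and all 10 were among the 16536 genes that passed the filter on low values. The crypts came from 8-week-old mice, of which 4 were conditional knockouts of Tdp-43 (cKO) and 4 were their wild-type littermates (Ctrl), and each mouse gave 1 library. The sources used here do not give the Cre driver, the deleted part of the gene or any agent that induced the deletion. The protein TDP-43 binds RNA in the nucleus and is the product of Tardbp. Crypts are the glands of the gut lining in which its stem cells divide.

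The integrated stress response is a switch that cells throw when they lack amino acids, when proteins misfold in the endoplasmic reticulum, when their mitochondria are damaged, when haem is short or when they meet double-stranded RNA. Each of these activates a kinase that phosphorylates the initiation factor eIF2, which slows most translation but lets ribosomes reach the coding sequence of ATF4, past short reading frames at the start of its mRNA. ATF4 pairs with C/EBP proteins and turns on genes for amino acid uptake and synthesis, for redox balance and for cell death or recovery. ATF4 is therefore governed largely at the level of translation, and the abundance of Atf4 mRNA, which is what was measured here, does not give the amount of the protein.

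In the libraries labelled cKO, 4 of the 10 genes rose and 6 did not pass the test. Trib3, a pseudokinase that binds AKT and damps the ATF4 response, went from a mean of 12.4 to 422 normalized counts. Chac1, an enzyme that breaks down glutathione, went from 95.7 to 427, Atf5, a close relative of ATF4, from 408 to 999, and Ddit4, an inhibitor of the growth kinase complex mTORC1, from 1874 to 3216. Atf4 itself, Ddit3 (the gene of CHOP), Atf3, Nupr1, Cebpb and Cebpg had log2 fold changes between -0.15 and 0.32.

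The letters that C/EBP and ATF dimers are known to bind as a composite site were searched in the promoters of the 10 genes, and the matches are shown here because they fall in genes on both sides of that split. The core was spelled TGATGNAA (TTNCATCA on the other strand). It was present in the RefSeq promoters (250 bases before to 50 after the start, build GRCm38.p6) of 4 of the 10 genes, which have 11 promoters in all, and in 3.97% of all 32851 promoters. All 4 matches lie on the other strand, and capitals mark them. Trib3 is shown from 250 bases before to 22 bases after the start, Chac1 for the 250 bases before it, and Atf3 and Nupr1 for the 60 bases around the match. Trib3 lies at chr2:152344039-152344310 (minus strand), Chac1 at chr2:119350992-119351241 (plus strand), Atf3 at chr1:191183410-191183469 (minus strand) and Nupr1 at chr7:126625547-126625606 (minus strand).
Trib3: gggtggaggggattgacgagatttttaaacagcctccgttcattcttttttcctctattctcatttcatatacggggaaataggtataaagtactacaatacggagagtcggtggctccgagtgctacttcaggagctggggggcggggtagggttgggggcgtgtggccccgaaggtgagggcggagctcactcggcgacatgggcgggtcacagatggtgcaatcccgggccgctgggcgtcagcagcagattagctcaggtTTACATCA
Chac1: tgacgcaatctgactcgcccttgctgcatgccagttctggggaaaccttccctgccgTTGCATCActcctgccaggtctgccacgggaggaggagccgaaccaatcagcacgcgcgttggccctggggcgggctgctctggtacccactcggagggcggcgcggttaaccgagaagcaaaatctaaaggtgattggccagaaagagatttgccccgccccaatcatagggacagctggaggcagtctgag
Atf3: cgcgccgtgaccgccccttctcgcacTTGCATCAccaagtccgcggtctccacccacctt
Nupr1: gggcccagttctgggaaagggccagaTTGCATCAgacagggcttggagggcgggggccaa

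The match of Chac1, Atf3 and Nupr1 was spelled TTGCATCA, with its first base 193 bases before the start in Chac1 and 110 bases before it in both Atf3 and Nupr1. Spelled that way on either strand, the core was present in 0.895% of all promoters. Trib3 had TTACATCA, with its first base at position 15 after the RefSeq start. By the coordinates of the counted gene, which begins at 152344032 on the minus strand, the match (152344039 to 152344046) lies before the start. Chac1 and Trib3 rose while Atf3 and Nupr1 did not pass the test, and Atf5 and Ddit4, which also rose, had no match in this window. Of 25 further genes known as ATF4 targets that had a promoter in the table, 7 held the core. The cAMP response element TGACGTCA (1.79% of all promoters) and the C/EBP palindrome TTGCGCAA (0.183%) were present in none of the 10 genes. Neither was the endoplasmic reticulum stress element, CCAAT and CCACG 9 bases apart (0.119%). The AP-1 letters TGANTCA (7.81%) were present in 1 of the 10 genes, Ddit3, as TGACTCA 242 bases before the start. All were searched on both strands, and the spelling with C is a special case of the core. These matches describe letters and no binding was measured.

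Values are normalized counts, which the authors made by dividing gene counts by 1 factor per library. The recovered reads on genes ranged from 21517596 to 29992110 per library. Log2 fold changes are libraries labelled cKO over Ctrl on the log2(value + 1) scale, given with the SE and limma's p adjusted over all tested genes (Benjamini-Hochberg). A gene was called where that p was under 0.05. Tardbp RNA was higher, not lower, in the libraries labelled cKO, at 11990.2, 10794, 11875 and 13269 against 6319, 6342, 5103 and 4900.2 in Ctrl (log2 fold change 1.09 ± 0.11, adjusted p = 0.00209), and which part of it was deleted is not known here. Markers of epithelium, the labelled cell type, summed to between 348076 and 412182 in Ctrl and between 340615 and 402929 in the libraries labelled cKO. Of the 10 epithelial markers, the keratin genes Krt18 and Krt20 rose (log2 fold changes 0.48 and 0.60, adjusted p = 0.0435 and 0.0322) and the homeobox gene Cdx1 fell (-0.48, adjusted p = 0.0157). Xist, the RNA of the inactive X chromosome, was at 32.1 in cKO replicate 3 and between 24091 and 32502 in the other 7 libraries. In bulk tissue, fewer cells of a type and less RNA per cell cannot be told apart. The p-values weigh the difference between the groups against the spread between these mice alone.

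**Figure D1:**
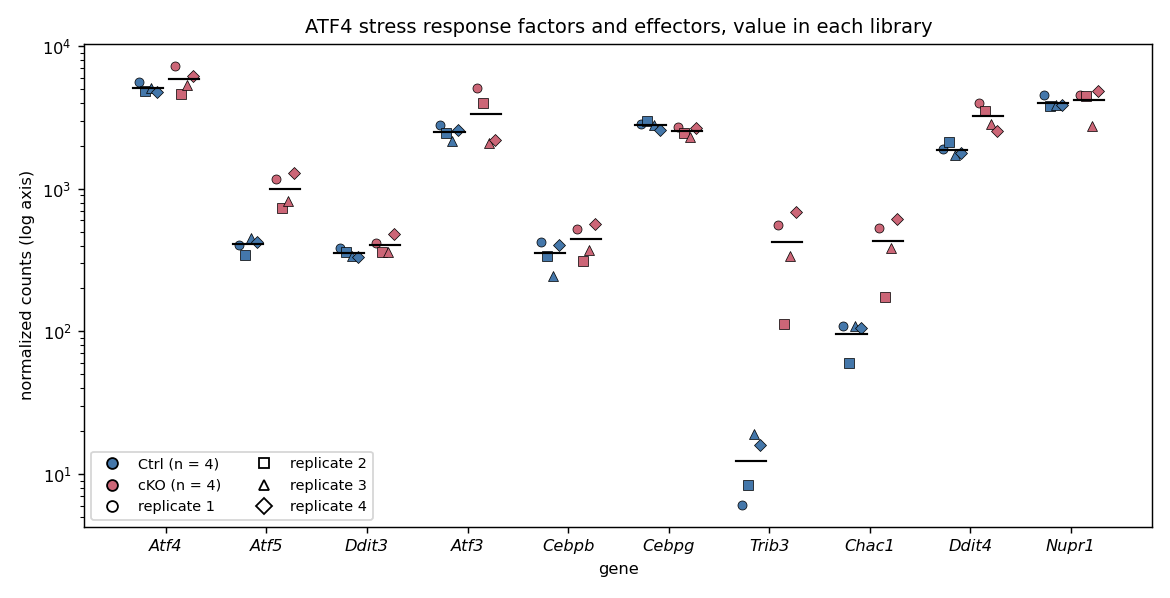
Normalized counts (log axis) of the 10 genes in each library, 4 Ctrl and 4 cKO, with the marker shape for the replicate number and a bar for the group mean. The groups lie apart for Atf5, Trib3, Chac1 and Ddit4, and Trib3 spans 6.08 to 18.9 in Ctrl against 112 to 683 in cKO.

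Among the transcription factors, Atf5 was the only one of the 6 that was called. Atf5 (ENSMUSG00000038539, chromosome 7, 44812256 to 44816658, minus strand) is, like ATF4, a bZIP factor whose translation depends on short upstream reading frames, and it is known for inducing mitochondrial chaperones and proteases. In order of replicate number, from 1 to 4, the Ctrl libraries had 406, 343, 455 and 426 normalized counts and the cKO libraries 1161, 730.3, 824 and 1281, and the same order holds for the other genes. Every cKO library lay above every Ctrl library, with cKO replicates 1 and 4 well above replicates 2 and 3. The means were 408 ± 47.2 and 999 ± 264 (SD, n = 4 each), and the log2 fold change was 1.26 ± 0.19 with a 95% interval of 0.84 to 1.68 (adjusted p = 0.00675).

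Atf5 shares 571 bases with Nup62, a nuclear pore gene on the opposite strand, and the sources used here do not say whether the counting used strand. Without strand, reads from the shared bases cannot be assigned to either. Nup62 had 1519 ± 107 normalized counts in Ctrl against 1917 ± 245 in cKO and was not called, at a log2 fold change of 0.33 ± 0.11 (adjusted p = 0.0773). The other gene in that overlap, Il4i1, shares 272 bases with Atf5 and had 1.22 to 6.23 normalized counts in Ctrl.

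Atf4 (ENSMUSG00000042406, chromosome 15, 80255184 to 80257541, plus strand), the central factor of the response, had 5586, 4863, 5069 and 4802 normalized counts in Ctrl and 7259.8, 4624, 5334 and 6148 in cKO. The groups overlapped, since cKO replicate 2 was the lowest of all 8 libraries and cKO replicate 1 the highest. The log2 fold change was 0.18 ± 0.13 (adjusted p = 0.411), and its 95% interval, as a fold, ran from 0.922 to 1.40. A change of Atf4 mRNA as large as that of Atf5 lies outside this interval.

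Ddit3 (ENSMUSG00000025408, chromosome 10, 127290774 to 127296288, plus strand) encodes CHOP, a partner of ATF4 that is known for promoting death in unresolved endoplasmic reticulum stress. It had 387, 358, 336 and 334 normalized counts in Ctrl and 417, 361, 361 and 479.9 in cKO. Only cKO replicates 1 and 4 exceeded every Ctrl library, so the groups overlapped. The log2 fold change was 0.19 ± 0.12 with a 95% interval of -0.09 to 0.47 (adjusted p = 0.369). Ddit3 shares 68 bases with the methionyl-tRNA synthetase gene Mars on the opposite strand, which had a log2 fold change of 0.50 ± 0.18 (adjusted p = 0.101). GENCODE M21 lists a further gene named Ddit3.

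Atf3 (ENSMUSG00000026628, chromosome 1, 191170296 to 191218039, minus strand), an early-response bZIP factor that many stresses induce besides the ATF4 pathway, divided the libraries labelled cKO. It had 2812, 2458, 2149 and 2577 normalized counts in Ctrl and 5079, 3973, 2093 and 2190.3 in cKO. Replicates 1 and 2 of cKO lay above all of Ctrl, replicate 3 lay under all of Ctrl and replicate 4 within it. The group SD was 276 in Ctrl and 1449 in cKO, and the log2 fold change of 0.32 ± 0.28 was not called (adjusted p = 0.499). Its 95% interval, as a fold, from 0.808 to 1.92, holds both no change and a near doubling.

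Cebpb and Cebpg encode C/EBP proteins that pair with ATF4. Cebpb (ENSMUSG00000056501, chromosome 2, 167688915 to 167690418, plus strand) had 423, 338, 244 and 405 normalized counts in Ctrl and 518, 313, 369 and 567 in cKO, with overlapping groups and a log2 fold change of 0.32 ± 0.23 (adjusted p = 0.423). Cebpg (ENSMUSG00000056216, chromosome 7, 35046422 to 35056573, minus strand), which lacks a classical activation domain, had 2843, 3005, 2816 and 2596 in Ctrl and 2709, 2474, 2320.2 and 2649 in cKO. It was the only one of the 10 with a log2 fold change under 0, at -0.15 ± 0.08 (adjusted p = 0.257), and its groups overlapped as well. Cebpb shares 908 bases with Tmem189 on the opposite strand, which was not called (log2 fold change 0.24 ± 0.09, adjusted p = 0.103), and Cebpg overlaps 3 genes of low count.

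The effectors held the largest changes. Trib3 (ENSMUSG00000032715, chromosome 2, 152337422 to 152344032, minus strand) had 6.08, 8.40, 18.9 and 16.0 normalized counts in Ctrl and 553, 112, 340.4 and 683 in cKO. These stand for 5, 8, 20 and 18 reads in Ctrl and 606, 115, 339 and 696 in cKO. All 4 cKO libraries lay far above Ctrl, and cKO replicate 2, the lowest, was still well clear of the highest Ctrl library. The ratio of the means was 34.2, with 12.4 ± 6.10 in Ctrl and 422 ± 250.3 in cKO (SD, n = 4 each). The log2 fold change was 4.83 ± 0.57, with a 95% interval of 3.53 to 6.12 (adjusted p = 0.00310). The level in Ctrl rests on few reads, so the size of the fold is less certain than its direction.

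Chac1 (ENSMUSG00000027313, chromosome 2, 119351229 to 119354381, plus strand) encodes a gamma-glutamyl cyclotransferase that degrades glutathione. It had 108, 59.9, 109 and 106 normalized counts in Ctrl and 534, 174, 383 and 617 in cKO. The groups lay apart, and within cKO the libraries followed the same order as for Trib3, with replicate 2 lowest, then 3, 1 and 4. The log2 fold change was 2.04 ± 0.39, with a 95% interval of 1.16 to 2.92 (adjusted p = 0.0142).

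Ddit4 (ENSMUSG00000020108, chromosome 10, 59949669 to 59951834, minus strand), also known as REDD1, restrains mTORC1 and is also induced by glucocorticoids, hypoxia and DNA damage. It had 1888, 2119, 1713 and 1775 normalized counts in Ctrl and 3990.0, 3480.0, 2848 and 2546 in cKO. The groups lay apart here too, but the cKO libraries took another order, with replicate 4 the lowest and replicate 1 the highest. The log2 fold change was 0.76 ± 0.14, with a 95% interval of 0.44 to 1.08 (adjusted p = 0.0128).

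Nupr1 (ENSMUSG00000030717, chromosome 7, 126623249 to 126630861, minus strand) encodes a small chromatin-associated protein of the stress response. It had 4566, 3788, 3863 and 3858 normalized counts in Ctrl and 4544, 4459, 2775 and 4877 in cKO. The cKO libraries held both the lowest and the highest of the 8 values. The log2 fold change of 0.02 ± 0.17 was not called (adjusted p = 0.944), and its 95% interval was -0.36 to 0.40.

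**Figure D2:**
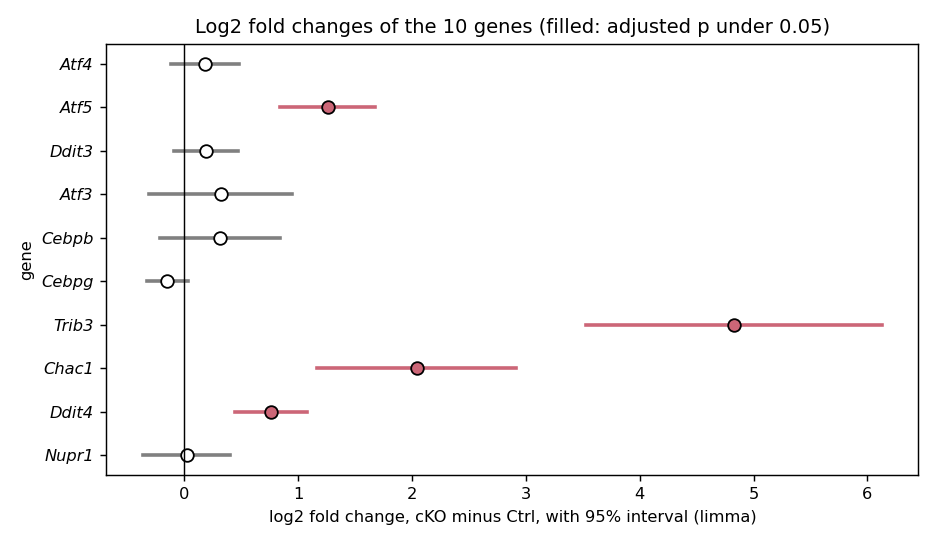
Log2 fold change of each of the 10 genes, libraries labelled cKO over Ctrl, with the 95% interval from limma and a filled point where the adjusted p was under 0.05. The intervals of Trib3, Chac1, Atf5 and Ddit4 lie above 0, and those of the other 6 genes include it.

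Read against the whole table, 4 of 10 genes were called higher, where 5.65% of all 16536 tested genes were called higher (935), and 11.7% were called in either direction. None of the 10 was called lower, against 1004 of all tested genes, and none reached an unadjusted p under 0.05 in that direction. With 10 genes picked with earlier results known, these shares describe the set and do not test it. The groups did not overlap, with all of cKO above all of Ctrl, for the same 4 genes, and for 9.54% of all tested genes. In the opposite direction the groups lay apart for 0 of the 10 and for 10.3% of all tested genes. The median log2 fold change was 0.32 over the 10 genes and -0.01 over all tested genes.

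Other tests named the same number. edgeR's quasi-likelihood test on recovered reads called 4 of the 10 higher and 0 lower, with 6.03% of all genes called higher. DESeq2 called 4 higher and 0 lower, with 9.15% of all genes called higher. Scaled to library totals, 64.3% of all calls by limma were higher, in place of 48.2%, and the calls of the 10 genes did not change. In the authors' deposited table, 1457 of 28982 genes (5.03%) were higher at an adjusted p under 0.05. That share is over all genes with a p-value, without the filter on low values, so it is not on the same base as the others. The authors' deposited table gave log2 fold changes of 5.08 for Trib3 (adjusted p = 2.10e-19), 2.16 for Chac1 (2.28e-07), 1.29 for Atf5 (4.71e-08) and 0.78 for Ddit4 (7.95e-05). For the other 6 genes, adjusted p in the authors' deposited table ran from 0.331 to 0.907.

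The abundance of the 10 genes relative to one another was compared per kilobase of gene length. In Ctrl, Atf4 stood highest at 2154 ± 151 normalized counts per kilobase, followed by Nupr1 at 1599 ± 146, Atf3 at 1160.0 ± 128 and Ddit4 at 1068 ± 102. Cebpg followed at 501 ± 29.9, Cebpb at 234 ± 53.8, Ddit3 at 206 ± 14.4 and Atf5 at 204 ± 23.7. Chac1 at 58.5 ± 14.6 and Trib3 at 5.82 ± 2.87 were the least abundant of the 10. The libraries overlapped between Atf3 and Ddit4, between Cebpb and Ddit3, and between Ddit3 and Atf5, so the order within these pairs is not settled. In both groups the full gene length was used, also where bases are shared with a gene on the opposite strand. Cebpb shares 908 bases with Tmem189 and Atf5 shares 571 with Nup62. What this does to their places was not tested.

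In the libraries labelled cKO, Atf4 was again the most abundant per kilobase (2477 ± 480.2), ahead of Ddit4 (1832 ± 368), Nupr1 (1656 ± 375) and Atf3 (1548 ± 673). Ddit4 moved from the fourth place to the second, and Atf5, at 501 ± 132, from the eighth to the fifth. Cebpg had 452 ± 31.4, Cebpb 294 ± 80.0, Chac1 261 ± 119, Ddit3 236 ± 33.0 and Trib3 199 ± 118. Neighbours in this order overlapped except between Atf3 and Atf5 and between Cebpg and Cebpb. Trib3, far under all others in Ctrl, thus overlapped with Ddit3 in cKO.

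The libraries labelled cKO varied more than Ctrl for each of the 10 genes. The coefficient of variation was larger in cKO for 10 of 10 genes, and for 64.0% of all tested genes. It was 59.3% for Trib3 and 45.5% for Chac1 in cKO, against 49.4% and 25.0% in Ctrl. Cebpg varied least in both groups, by 5.98% in Ctrl and 6.94% in cKO. Over all tested genes the median was 14.3% in Ctrl and 18.3% in cKO.

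Within cKO, replicate 2 held the lowest value of 6 of the 10 genes and replicate 4 the highest of 6, with replicate 1 the highest of the other 4. Replicate 3 was lowest for 3 genes and replicate 4 for 1, Ddit4. Among all 935 genes called higher, 51.1% were highest in replicate 1 and 19.9% in replicate 4, while 32.9% were lowest in replicate 2 and 43.9% in replicate 3.

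**Figure D3:**
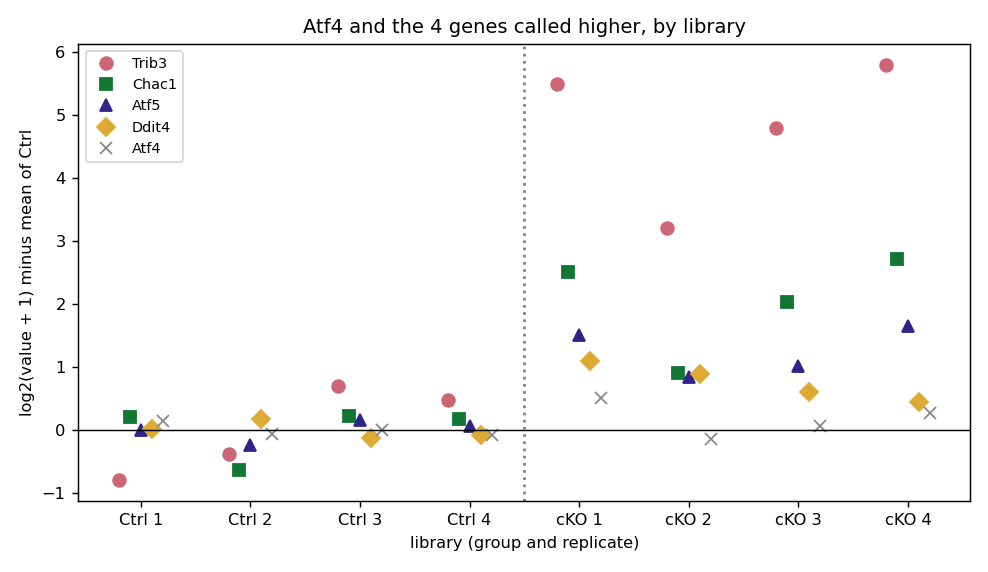
Log2(value + 1) of Trib3, Chac1, Atf5, Ddit4 and Atf4 in each library, minus the mean of Ctrl. Trib3, Chac1 and Atf5 were lowest in cKO replicate 2 and highest in cKO replicate 4, while Ddit4 was lowest in cKO replicate 4 and Atf4 lay between -0.13 and 0.52 in the cKO libraries.

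Markers of neutrophils moved with the groups. The 10 markers summed to between 656 and 1509 normalized counts in Ctrl and between 5488 and 17931 in the libraries labelled cKO, and 6 of the 7 tested were called higher. No marker was at 0 in all libraries of either group. Ly6g made up most of these sums, with 9316, 17824, 5203 and 3991 in cKO, so that the full sum was highest in cKO replicate 2, where Trib3, Chac1 and Atf5 were lowest. The other 9 markers ran otherwise and summed to 8.52, 14.7, 19.9 and 133 in Ctrl and to 348, 106, 285 and 1617 in cKO. Without Ly6g, then, the cKO libraries ranked as they did for Trib3, Chac1 and Atf5, with replicate 2 lowest and replicate 4 highest. The sum of these 9 markers was lower in cKO replicate 2 than in Ctrl replicate 4 (106 against 133). With Ly6g the order was the opposite, at 17931 against 1509. In those libraries, Ctrl first, Trib3 was at 16.0 and 112, Chac1 at 106 and 174, Atf5 at 426 and 730.3 and Ddit4 at 1775 and 3480.0. The part of neutrophils in these results was not tested, and 1 library of each group cannot decide it. Macrophage and dendritic cell markers summed to 2578 to 3040 in Ctrl and 1886 to 4173 in cKO. Of 10 tested, 1 was called higher, Mrc1 (log2 fold change 0.87, adjusted p = 0.0424). Cd14 made up most of these sums and alone had a log2 fold change under 0 (-0.31). Adgre1, Csf1r, C1qa, C1qb and C1qc were not called, with log2 fold changes from 0.93 to 1.78 and 95% intervals above 0. The intervals of Cd68, Lyz2, Itgax and Cd14 included 0. The part of these cells was not tested either. Like the macrophage and dendritic cell sums, those of T cell, B cell, fibroblast, endothelial and smooth muscle markers overlapped between the groups.

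Upstream of ATF4, of 8 sensor and phosphatase genes, 1 rose and 1 fell, with a median log2 fold change of -0.10. Over all tested genes, 11.7% were called in either direction, and the counts in this list and those below stand beside that share. Ppp1r15a, which encodes GADD34, the inducible phosphatase subunit that restores eIF2 and is itself a target of the response, went from 416 ± 51.0 to 706 ± 167 normalized counts (log2 fold change 0.74 ± 0.18, adjusted p = 0.0336). Dele1, which relays mitochondrial stress to the kinase HRI, fell from 1269 ± 78.9 to 908 ± 70.2 (log2 fold change -0.48 ± 0.09, adjusted p = 0.0122). The 4 eIF2 kinases were not called by limma, with log2 fold changes of -0.14 for Eif2ak1 (the haem sensor HRI), -0.12 for Eif2ak2 (the double-stranded RNA sensor PKR), 0.35 for Eif2ak3 (PERK, of the endoplasmic reticulum) and -0.33 for Eif2ak4 (the amino acid sensor GCN2). Their adjusted p ran from 0.0803, for Eif2ak4, to 0.856, and DESeq2 called 2 of the 8 genes of this list lower. For Eif2ak4 all of cKO (536.1 to 623.5 normalized counts) lay under all of Ctrl (663.6 to 826.1), as for 10.3% of all tested genes. The call of Ppp1r15a was lost without any 1 of the Ctrl libraries and without cKO replicate 1 or 4 (adjusted p up to 0.0831).

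Of 8 subunit genes of eIF2 and its exchange factor eIF2B, 3 rose and 0 fell, with a median of 0.26. They were Eif2s1, the phosphorylated subunit (log2 fold change 0.56 ± 0.13, adjusted p = 0.0250), Eif2b2 (0.31 ± 0.08, adjusted p = 0.0365) and Eif2s2 (0.46 ± 0.12, adjusted p = 0.0414). In the lower direction limma, edgeR and DESeq2 called 0, and 0 had an unadjusted p under 0.05. With single libraries left out, all 3 kept log2 fold changes near these, from 0.47 to 0.66 for Eif2s1, 0.28 to 0.36 for Eif2b2 and 0.39 to 0.53 for Eif2s2, but calls were lost. Eif2s1 was not called without Ctrl replicate 3 or 4 or cKO replicate 1 or 4 (adjusted p up to 0.0700), Eif2b2 without any 1 Ctrl library or cKO replicate 1 or 4 (up to 0.0964), and Eif2s2 without Ctrl replicate 1, 2 or 3 or cKO replicate 3 or 4 (up to 0.105). Eif2b2 was also not called without the filter on low values (adjusted p = 0.0825).

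Downstream, 31 of 32 further ATF4 target genes were tested, of which 17 rose and 1 fell, with a median log2 fold change of 0.78. Fgf21 was too low to test. Eif4ebp1, an inhibitor of cap-dependent translation, went from 574 ± 82.3 to 1390.2 ± 234 normalized counts (log2 fold change 1.27 ± 0.15, adjusted p = 0.00287). The arginine transporter Slc7a3 went from 2.48 ± 1.13 to 55.1 ± 31.4 (3.90 ± 0.46, adjusted p = 0.00300). The stress hormone Gdf15 went from 118 ± 13.3 to 670.1 ± 244 (2.41 ± 0.29, adjusted p = 0.00310), and Slc3a2, the shared chain of several amino acid transporters, from 1581 ± 88.5 to 2650 ± 358 (0.74 ± 0.10, adjusted p = 0.00603). Gpt2, a mitochondrial alanine transaminase, fell by 0.97 on the log2 scale (adjusted p = 0.0298), a call lost without Ctrl replicate 3 or 4 or cKO replicate 1 or 3 (adjusted p up to 0.0842).

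Within cKO these targets ranked the libraries much as Trib3 and Chac1 did. Of the 17 that rose, 13 were lowest in replicate 2 and 4 in replicate 3, and 9 were highest in replicate 4, 7 in replicate 1 and 1 in replicate 2. Low values in cKO replicate 2 were not particular to these targets. Among the genes of the ATF6 and IRE1 arms described next, Dnajb9, Herpud1, Sel1l, Ern1 and Ern2 were lowest in cKO replicate 3. All others of that list were lowest in cKO replicate 2.

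The arms of the endoplasmic reticulum response that run through ATF6 and IRE1 gave a different count. Of 23 genes tested, 0 were called by limma in either direction, with log2 fold changes from -0.22 to 0.49 and a median of 0.07. At an unadjusted p under 0.05 there was 1 higher and 1 lower, edgeR called 0 and DESeq2 called 1 higher. In other settings limma called 1 of them higher, with scaling to library totals and without cKO replicate 2 or 3. Mitochondrial chaperones and proteases, of which ATF5 is known to induce some, also gave 0 calls by limma among 12 tested, with a median of 0.07. At an unadjusted p under 0.05 there was 1 higher and 0 lower, and edgeR and DESeq2 each called 1 higher. The 1 higher at that unadjusted p was Hspa9, with all of cKO above all of Ctrl (log2 fold change 0.35 ± 0.10, limma adjusted p = 0.0519). The count of 0 by limma moved with the setting. It was 1 higher without the filter, with a mean of at least 50 or with scaling to library totals, and 2 higher without cKO replicate 2. Differences of this list and the ATF6 and IRE1 list from the ATF4 targets were not tested.

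**Figure D4:**
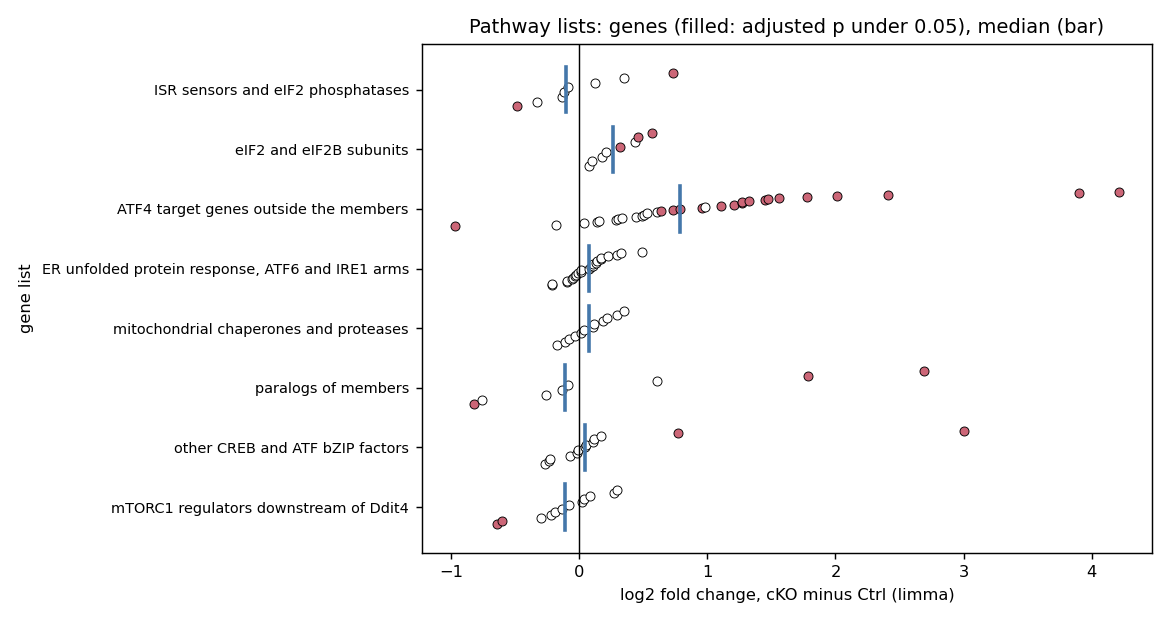
Log2 fold change (libraries labelled cKO over Ctrl, limma) of each tested gene in 8 lists, filled where the adjusted p was under 0.05, with the list median as a vertical bar. The ATF4 targets have a median of 0.78, and the other 7 lists have medians between -0.11 and 0.26.

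Among relatives of the 10 genes, 8 of 9 listed were tested, of which 2 rose and 1 fell, with a median of -0.11. Ddit4l, a paralog of Ddit4 that also restrains mTORC1, went from 11.1 ± 10.2 to 58.9 ± 22.3 normalized counts (log2 fold change 2.69 ± 0.66, adjusted p = 0.0331). Its call was lost without Ctrl replicate 1 or 2 or cKO replicate 1, 2 or 4 (adjusted p up to 0.0865). Jdp2, a bZIP repressor related to Atf3, went from 29.7 ± 8.54 to 108 ± 46.7 (1.79 ± 0.35, adjusted p = 0.0151). Cebpd, a relative of Cebpb, fell from 1472 ± 275 to 830 ± 111 (-0.82 ± 0.15, adjusted p = 0.0128).

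Of 13 other CREB and ATF factors tested, 2 rose and 0 fell, with a median of 0.05, and in the lower direction edgeR and DESeq2 called 0 and none had an unadjusted p under 0.05. Creb3l3, a membrane-bound factor of gut and liver that governs lipid and iron genes, went from 59.2 ± 3.63 to 580.5 ± 431 (95% interval of the log2 fold change 2.05 to 3.96, adjusted p = 0.00603). Its values in cKO were 545, 1199, 329 and 248, highest in replicate 2, where Trib3 was lowest. Crem, a factor that responds to cAMP, had 0.77 ± 0.20 (adjusted p = 0.0378), a call lost without any 1 Ctrl library or cKO replicate 1, 3 or 4 (adjusted p up to 0.0979).

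The genes whose profiles over the 8 libraries lay nearest to those of Trib3, Chac1 and Atf5 were found among genes with a mean of at least 50, by the root mean square difference of log2(value + 1) after subtraction of the Ctrl mean. For Atf5 they were Eif4ebp1 (0.09), the asparagine synthetase gene Asns (0.15) and the serine synthesis gene Psph (0.19). For Chac1 they were the cystine transporter gene Slc7a11 (0.26), the haem oxygenase gene Hmox1 (0.41) and the serine synthesis gene Psat1 (0.44). For Trib3 they were Slc4a11 (0.80), the mitochondrial tRNA gene mt-Te (0.83) and Mdfi (0.91), which lay farther off than those of Chac1 and Atf5 did. When all tested genes were searched, a setting chosen after the data were seen, the nearest to Trib3 were Adm2, a peptide hormone gene of the ATF4 target list (0.57), Slc4a11 (0.80) and Slc7a3 (0.82). Adm2 had 0, 1.05, 1.90 and 4.45 normalized counts in Ctrl and 85.8, 13.7, 35.1 and 82.4 in cKO. In that search the nearest to Chac1 were Slc7a11 (0.26), Mefv (0.35) and Nes (0.35), and those of Atf5 were the 3 already named.

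Asns had 1379.7, 1045, 1179.5 and 1126 normalized counts in Ctrl and 3357, 1819.5, 2601 and 3437 in cKO, a log2 fold change of 1.21 ± 0.20 (adjusted p = 0.00872). Slc7a11, which supplies the cystine for glutathione that CHAC1 degrades, had 204, 173, 264 and 247 in Ctrl and 958, 391, 773 and 1116 in cKO (1.78 ± 0.31, adjusted p = 0.0106). In both genes, as in Chac1 and Atf5, all cKO libraries lay above Ctrl, with replicate 2 the lowest of them and replicate 4 the highest. Both were picked because their profiles lay near those of Atf5 and Chac1, so this likeness follows from the choice.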

How the data were processed

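RNA from EDTA-released crypts of 4 cKO and 4 Ctrl mice was sequenced, per the labels' protocols. The tools named in the submitters' processing notes are CASAVA, HISAT2 2.0.5 and featureCounts 1.5.0-p3. Not given in the sources used here were the genome build and the use of strand. The coordinates of all 10 genes equal those of GENCODE M21 on GRCm38. The deposited signal values are gene counts that the authors divided by 1 factor per library, and whole reads were recovered for 100% of values within 1e-04. Of the authors' own comparison, the deposited table holds log2 fold changes with p-values, raw and adjusted, and names no test. The deposited gene lengths gave the values per kilobase.

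Genes with a mean of at least 10 were tested two-sided on log2(value + 1) with limma 3.58.1, using a mean-variance trend, robust eBayes and no term but the group. Benjamini-Hochberg adjustment ran over all 16536 genes tested. The added 1 pulls fold changes of low genes toward 0. Alternatives were pseudocounts of 0.5 and 5, no filter, a mean of at least 50, scaling by library totals or TMM, edgeR 4.0.16 and DESeq2 1.42.0 on recovered reads, the replicate number as a block, and each library left out. The tests were tried on simulated data. Libraries of a group differed by more than sampling noise. Named were all 10 genes, up to 4 called genes of each list by adjusted p with any moving against it, and the 3 nearest profiles, among genes with a mean of at least 50, to each of the 3 largest changes. Searching all tested genes for these was added after the data were seen. The 10 genes, the lists and the tests were chosen with earlier results of these data known.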

Additional observations from a re-analysis of the deposited data

Results flagged for a closer look

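In 2 of the 20 groups looked at (10 genes, Ctrl and cKO), 1 library stood apart from the other 3 by a gap close to the whole range of its group. Chance flags about 1 in 20 groups, so 1 such group would come by chance alone. Chac1 was low in Ctrl replicate 2, at 59.9 normalized counts against 106 to 109 in the other 3 Ctrl libraries, a gap of 0.937 of the range. Nupr1 was high in Ctrl replicate 1, at 4566 against 3788 to 3863 in the other 3, a gap of 0.903 of the range. Neither library changes a call of these genes when it is left out. In the libraries labelled cKO no gene of the 10 had such a library.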

How the results depend on the processing

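Under the 17 alternatives, 4 of the 10 genes were called higher and 0 lower each time. The log2 fold changes ranged from 4.42 to 5.37 for Trib3, 1.81 to 2.42 for Chac1, 1.13 to 1.40 for Atf5 and 0.65 to 0.87 for Ddit4, with adjusted p at most 0.0134, 0.0416, 0.0227 and 0.0457. Nupr1, not called in any, changed sign in 4 settings that each left out 1 library, and its values ranged from -0.065 to 0.21 over all 8 such settings. The number of all genes called higher was 935, and 1509 with DESeq2. With 1 library left out it ranged from 379 to 1347. The number called lower was 1004, from 390 to 1385 with 1 library left out and from 739 (library totals) to 1492 (DESeq2) in the other settings. ATF4 targets called higher, 17 in the reported setting, ranged from 12 to 24. The cause of these moves was not tested. Replicate numbers were not taken to pair the mice. The correlations of same-numbered deviations were 0.32, -0.11, 0.12 and 0.32, and those of differently numbered ones ran from -0.32 to 0.24. These values do not settle whether the numbers pair the mice. With the replicate number as a block, 821 genes were higher and 924 lower, 4 of the 10 genes were called, 19 ATF4 targets were higher, and Ppp1r15a, Eif2b2 and Ddit4l lost their calls. Depth limits the level of Trib3 in Ctrl, which rests on 5 to 20 reads per library.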

Other observations

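The mTORC1 pathway, which DDIT4 restrains, was looked at through 12 further regulators. None of the 12 was called higher by limma, edgeR or DESeq2, with 0 at an unadjusted p under 0.05, and 2 fell. They were Sesn1, from 389 ± 22.9 to 257 ± 31.8 normalized counts (log2 fold change -0.60 ± 0.12, adjusted p = 0.0169), and Sesn3, from 1137 ± 114 to 733 ± 133 (-0.64 ± 0.13, adjusted p = 0.0188). Both encode sestrins, which restrain mTORC1 when amino acids are short. Their relative Sesn2, listed among the ATF4 targets, rose from 424 ± 24.0 to 843 ± 196 (0.96 ± 0.17, adjusted p = 0.0126) and is named because it moved against them. Sesn1 was not called without Ctrl replicate 3 (adjusted p = 0.0585), and Sesn3 lost its call without cKO replicate 4, Ctrl replicate 1 or Ctrl replicate 2 (adjusted p at most 0.0536). The median log2 fold change of the 12 was -0.11. Over all tested genes, 11.7% were called in either direction.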
